A study of Mus musculus with 7 samples.

Results

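The genes described here are those of major histocompatibility complex (MHC) class I in the mouse: the heavy chains H2-D1, H2-K1, H2-Q4, H2-Q6, H2-Q7, H2-Q10, H2-T23 and H2-M3, the light chain B2m, and the peptide transporter subunit Tap1. They were chosen by gene name, and all 10 were found among the 35641 genes of the table. RNA was sequenced from lung cells of female C57BL6 mice, with 4 libraries named HF and 3 named LF; the labels do not spell the names out, and for age and diet the sources used here give nothing. The title of the study concerns neutrophils in obesity, and the labels describe a flow cytometry sort for CD45+ CD11b+ Ly6Clo Ly6G+ cells, the same in both groups. SMART-Seq, a kit for little input RNA that amplifies the copied DNA, was used. The comparison asks how lung neutrophils of HF mice differed from those of LF mice.

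Class I molecules show peptides from inside the cell to CD8 T cells and are read by inhibitory receptors of natural killer cells. A heavy chain folds together with B2m in the endoplasmic reticulum, where the TAP transporter delivers peptides cut by the proteasome. H2-K and H2-D are the classical, highly variable heavy chains of this strain, present on nearly all nucleated cells, while the Qa and M genes of the same complex encode less variable heavy chains with narrower roles.

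Both groups were first set against the markers of the sort. Between 13943173 and 16599658 reads fell on genes in the HF libraries, and between 16974428 and 18983351 in the LF libraries. Ly6g, the gene of the sorted surface protein, averaged 3264 ± 1715 normalized counts in HF (SD, n = 4) and 2.99 ± 4.54 in LF (SD, n = 3), where LF7 held 0. The summed counts of 14 neutrophil markers ranged from 433410 to 592050 in HF and from 12928 to 14356 in LF. By the limma test described below, 13 of the 14 were higher in HF, against 26.2% of all genes tested. The sums of 15 monocyte and macrophage markers ranged from 27048 to 38303 in HF and from 159610 to 171140 in LF. By the same test 11 of the 15 were lower in HF, against 28.7% of all genes tested. The LF libraries thus went against their labelled sort, and are named here as the libraries labelled LF. Each direction below compares HF with these libraries. In bulk samples fewer cells of a type and less RNA per cell cannot be told apart.

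The promoters of 4 heavy chain genes are shown because the results turn on these genes: H2-Q10, which was abundant in the HF group alone, H2-D1 and H2-K1, the classical pair, and H2-M3, which was the lower one in HF. Each is the 250 bases before a gene start that RefSeq lists on GRCm38.p6, 5′ to 3′ on the gene's strand. H2-Q10 lies at chr17:35469839-35470088 (plus strand), H2-D1 at chr17:35262844-35263093 (plus strand), H2-K1 at chr17:34000334-34000583 (minus strand, 1 of 2 starts listed) and H2-M3 at chr17:37269984-37270233 (plus strand). Capitals mark GGGGATT (the opening letters of a kappa B site, which NF-kappa B factors bind), TGACG (the shared letters of a cyclic AMP response element) and CCAAT, each searched on both strands, so that ATTGG is a CCAAT read on the other strand. No marked matches overlapped.
H2-Q10: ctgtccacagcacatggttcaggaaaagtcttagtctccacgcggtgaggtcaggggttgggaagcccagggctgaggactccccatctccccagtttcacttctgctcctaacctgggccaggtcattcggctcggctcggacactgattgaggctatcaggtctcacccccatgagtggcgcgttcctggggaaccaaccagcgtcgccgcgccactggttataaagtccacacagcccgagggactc
H2-D1: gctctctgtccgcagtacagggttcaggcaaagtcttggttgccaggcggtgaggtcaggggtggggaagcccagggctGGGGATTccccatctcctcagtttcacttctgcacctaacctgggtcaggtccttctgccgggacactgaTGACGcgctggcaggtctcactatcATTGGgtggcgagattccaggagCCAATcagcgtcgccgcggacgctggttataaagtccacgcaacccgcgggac
H2-K1: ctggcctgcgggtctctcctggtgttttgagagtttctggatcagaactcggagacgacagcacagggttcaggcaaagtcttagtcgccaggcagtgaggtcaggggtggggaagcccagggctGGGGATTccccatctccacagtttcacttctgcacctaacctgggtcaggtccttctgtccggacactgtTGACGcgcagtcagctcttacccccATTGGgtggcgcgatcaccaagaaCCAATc
H2-M3: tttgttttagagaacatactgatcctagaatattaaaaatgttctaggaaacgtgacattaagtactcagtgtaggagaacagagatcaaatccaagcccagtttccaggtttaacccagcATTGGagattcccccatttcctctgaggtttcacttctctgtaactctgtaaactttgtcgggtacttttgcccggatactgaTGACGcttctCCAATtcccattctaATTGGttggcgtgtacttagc
The H2-D1 and H2-Q10 windows were alike, with 79.9% identical bases over their alignment. Even so, the H2-Q10 window held none of the 3 motifs as spelled, which says only that these letters are not in these 250 bases. Identity with H2-Q10 was 55.9% for H2-K1 and 41.3% for H2-M3. The windows follow the starts used: the kappa B letters began at base -125 from the start in H2-K1 and at -171 in H2-D1. The H2-K1 window thus covers a shifted stretch, and its 55.9% does not measure how far the promoters differ. The kappa B letters stood in the windows of 5 of the 10 genes (H2-K1, H2-D1, H2-Q4, H2-Q6 and H2-Q7), against 2.76% of 32851 RefSeq promoter windows of the same length. TGACG stood in 7 of the 10, against 17.8% of all windows, and CCAAT in 9, against 33.8%. Several of the 10 windows resemble each other, with 82.2% identical bases for H2-D1 and H2-Q6 and 78.2% for H2-Q4 and H2-Q6. The genes are therefore not independent cases to set against these shares. These matches describe the letters and nothing about the binding of a factor. Of the 10 genes, 9 lie on chromosome 17, and B2m lies on chromosome 2.

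Each gene was tested on log2(normalized count + 1) with limma, with p-values adjusted over the 14936 genes that averaged at least 10 normalized counts, and a threshold of 0.05. All 10 class I genes passed this filter. Of the 10, 4 were higher in HF (H2-Q10, H2-D1, H2-T23 and B2m), 1 was lower (H2-M3) and 5 did not pass the test. Over all genes tested, 26.2% were higher and 28.7% were lower (55.0% in either direction), so that the share of class I genes past the threshold was close to that of all genes. The 2 groups did not overlap for 5 of the 10 genes, against 62.2% of all genes tested. The median log2 difference was 0.32 over the 10 genes and -0.16 over all genes. Scaling bears on this: with equal library totals the median of all genes moved by -0.51, and 2 class I genes were then higher and 3 lower, against 18.1% and 42.1% of all genes. After quantile normalization 2 were higher and 4 lower, against 26.6% and 26.8%. H2-Q10 and H2-M3 were the 2 genes that kept their direction and their side of the threshold under every alternative tried. Of the 10 genes, 5 were past in the authors' deposited table, at an adjusted p of 0.05, against 43.0% of all genes with a value. Its log2 fold changes, the authors' own, were 9.76 for H2-Q10, 0.90 for H2-D1 and -3.20 for H2-M3.

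**Figure D1:**
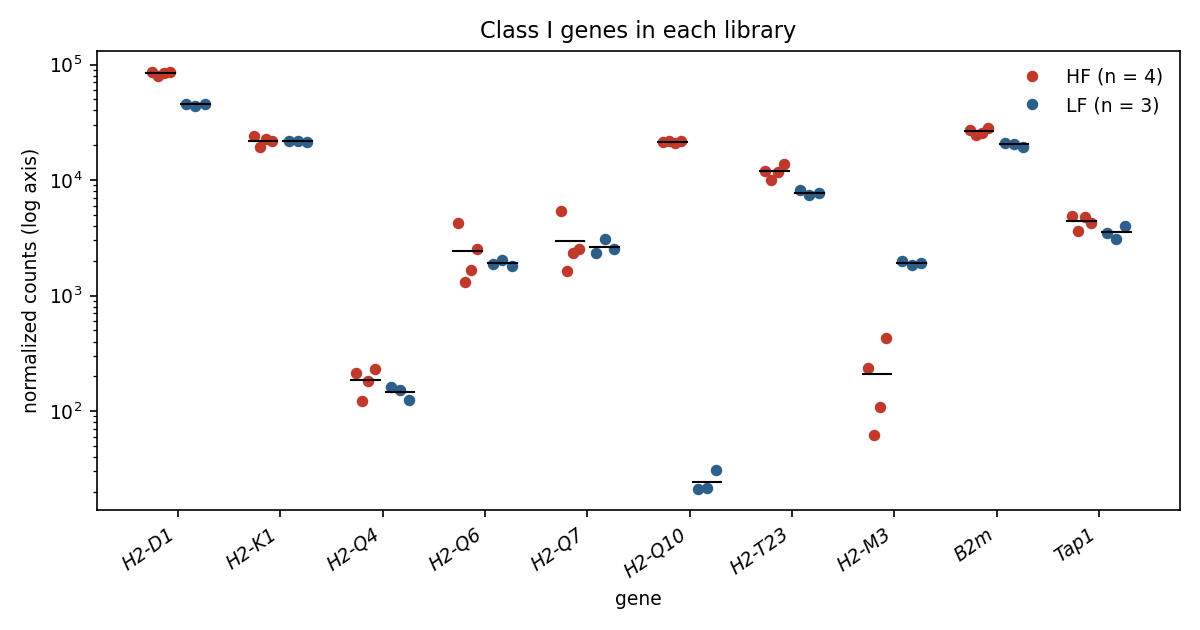
Normalized counts (log axis) of the 10 class I genes in each library, with HF in red (n = 4), the libraries labelled LF in blue (n = 3) and the group mean as a line. H2-Q10 stands near 21387 in all HF libraries and near 24.5 in the libraries labelled LF, H2-M3 goes the other way with wide spread in HF, and the H2-K1 groups overlap.

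H2-D1 (ENSMUSG00000073411) encodes the heavy chain H2-D, 1 of the 2 classical class I molecules. It stood at 86789, 79801, 85226 and 85485 normalized counts in HF replicates 1 to 4, and at 45772, 44063 and 45716 in the libraries labelled LF. All HF libraries were above all libraries labelled LF, and within each group the values lay close together. The ratio of the group means was 1.87. The log2 difference was 0.90 ± 0.04 (SE, limma adjusted p = 8.4e-07), and edgeR with TMM scaling kept it (0.88, edgeR adjusted p = 2.2e-06). It was 0.38 at equal totals and turned to -0.20 after quantile normalization (limma adjusted p = 0.0028).

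H2-K1 (ENSMUSG00000061232) encodes the other classical heavy chain, H2-K. It stood at 23851, 19243, 22608 and 21909 normalized counts in HF and at 21830, 21771 and 21499 in those labelled LF. The HF values lay on both sides of the others, with replicate 2 the lowest of all libraries and replicate 1 the highest. The log2 difference was 0.01 ± 0.07 (SE; limma adjusted p = 0.925). It became -0.51 at equal totals (limma adjusted p = 0.00035) and -0.996 after quantile normalization (limma adjusted p = 3.7e-06), both past the threshold. Whether H2-K1 changed therefore depended on how the libraries were scaled.

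The balance of the 2 classical genes does not move with 1 factor per library, because both are read in the same library. Reads of H2-D1 over reads of H2-K1, not corrected for gene length, came to 3.64, 4.15, 3.77 and 3.90 in HF, and to 2.10, 2.02 and 2.13 in the libraries labelled LF. The means were 3.86 ± 0.217 (SD, n = 4) and 2.08 ± 0.0527 (SD, n = 3), with no overlap. H2-D1 thus took a larger place beside H2-K1 in every HF library.

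H2-Q10 (ENSMUSG00000067235) belongs to the Qa-2 region and encodes a class I heavy chain that lacks a membrane anchor and is secreted; it is best known as a product of the liver. It stood at 21142, 21592, 20957 and 21857 normalized counts in HF replicates 1 to 4. In the libraries labelled LF it stood at 20.98, 21.8 and 30.8, from 28, 29 and 45 reads. None of the other 9 genes differed as widely: the ratio of the means was 872, the log2 difference was 9.73 ± 0.14 (SE; limma adjusted p = 6.8e-09), and it stayed between 9.22 and 9.90 over all alternatives. H2-Q10 was also the most even of the 10 genes in HF, where its highest library exceeded its lowest 1.04 times. The level in the libraries labelled LF was 0.115% of that in HF, while the summed neutrophil markers stood there at 2.69% of their HF sum and the median marker at 0.0955% of its HF level. The 5 liver markers in the table summed to between 1.12 and 28.8 normalized counts in HF and between 5.25 and 10.27 in the libraries labelled LF, so that they were near 0 in both groups. The part that the neutrophil makeup of the libraries has in the H2-Q10 difference was not tested.

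The Qa-2 region neighbours of H2-Q10 on chromosome 17 overlapped between the groups. Their RefSeq windows lie at chr17:35379367-35379616 (H2-Q4), chr17:35424600-35424849 (H2-Q6) and chr17:35438905-35439154 (H2-Q7), all on the plus strand like that of H2-Q10. H2-Q7 (ENSMUSG00000060550), which encodes a Qa-2 antigen held at the membrane by a lipid anchor, stood at 5379, 1637, 2319 and 2532 normalized counts in HF and at 2320, 3102 and 2530 in those labelled LF. The closely related H2-Q6 (ENSMUSG00000073409) stood at 4243, 1323, 1672 and 2530 in HF and at 1889, 2022 and 1805 in those labelled LF. In both genes HF replicate 1 was the highest library of all and HF replicate 2 the lowest, so the groups overlapped. Neither passed the test: the log2 difference was 0.03 ± 0.36 for H2-Q7 (SE; limma adjusted p = 0.954) and 0.21 ± 0.35 for H2-Q6 (SE; limma adjusted p = 0.629). Without HF replicate 1 the differences were -0.31 and -0.10. The same HF replicate 1 held 33282 summed counts of alveolar macrophage markers, against 8966 to 10982 in the other HF libraries. Of this sum 30151 came from Chil3, while Marco stood at 0 in all HF libraries and Siglecf (1318) lay within the range of the others. The neutrophil granule genes Ltf (64164), Camp (17783) and Ngp (67282), chosen like Chil3, Marco and Siglecf after their values were seen, were also highest in this library. Whether any of this bears on H2-Q6 and H2-Q7 was not tested. H2-Q4 (ENSMUSG00000035929), a further gene of the Qa-2 region, stood at 214, 122, 183 and 231 normalized counts in HF and at 161, 152 and 125 in those labelled LF. Its groups overlapped as well, and its log2 difference of 0.32 ± 0.28 (SE; limma adjusted p = 0.349) passed the test only after quantile normalization (0.83, limma adjusted p = 0.039). Reads of these genes are hard to assign: in GENCODE M21 transcripts 34.9% of the windows of 50 bases in H2-Q7, 35% in H2-Q6 and 39.2% in H2-Q4 also occur in another gene. The figure for H2-Q10 was 7.73%. The sources used here do not give the read length or the treatment of reads with several matches, so the values of H2-Q4, H2-Q6 and H2-Q7 are uncertain.

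H2-T23 (ENSMUSG00000067212) encodes Qa-1, which presents leader peptides of other class I heavy chains to a natural killer cell receptor. It stood at 11898, 9925, 11793 and 13861 normalized counts in HF and at 8167, 7421 and 7731 in those labelled LF. The groups did not overlap, and HF replicate 4 was the highest. The log2 difference was 0.60 ± 0.11 (SE; limma adjusted p = 0.0018). It was 0.08 at equal totals (limma adjusted p = 0.427) and turned to -0.20 after quantile normalization (limma adjusted p = 0.054), so the call was lost under both, while edgeR with TMM scaling kept it (0.59, adjusted p = 0.0020). Of its 50-base windows, 29.8% also occur in another gene.

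H2-M3 (ENSMUSG00000016206) encodes a heavy chain known for presenting peptides that begin with formyl-methionine, as bacterial and mitochondrial proteins do. It stood at 235, 61.7, 109 and 428 normalized counts in HF and at 2002, 1832 and 1910 in those labelled LF. Every HF library was below every library labelled LF, and the HF values spread widely, with replicate 4 holding 6.94 times the level of replicate 2. The mean in the libraries labelled LF was 9.18 times that in HF, and the log2 difference was -3.56 ± 0.59 (SE; limma adjusted p = 0.0013, at most 0.0064 over the alternatives). Of its 50-base windows, 0.576% occur in another gene. The groups separated in the same way in the summed monocyte and macrophage markers. Within HF the marker sum was highest in replicate 3, at 38303, where H2-M3 stood at 109. The sum was 33293 in replicate 4, where H2-M3 stood at 428. Single markers, picked after their values were seen, had orders of their own. Ccr2 (1737), Fn1 (1937) and F13a1 (1014) were highest in replicate 3. Ly6c2 (6198), Ms4a4c (910) and Cx3cr1 (620) were highest in replicate 4, as H2-M3 was. Of the mean HF sum of 32272, Csf1r supplied 14073 and Adgre1 5000. Adgre1 did not differ between the groups (log2 difference 0.003), so the sum is not a measure of monocyte RNA alone. The part of monocyte or macrophage RNA in the H2-M3 difference was not tested.

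**Figure D2:**
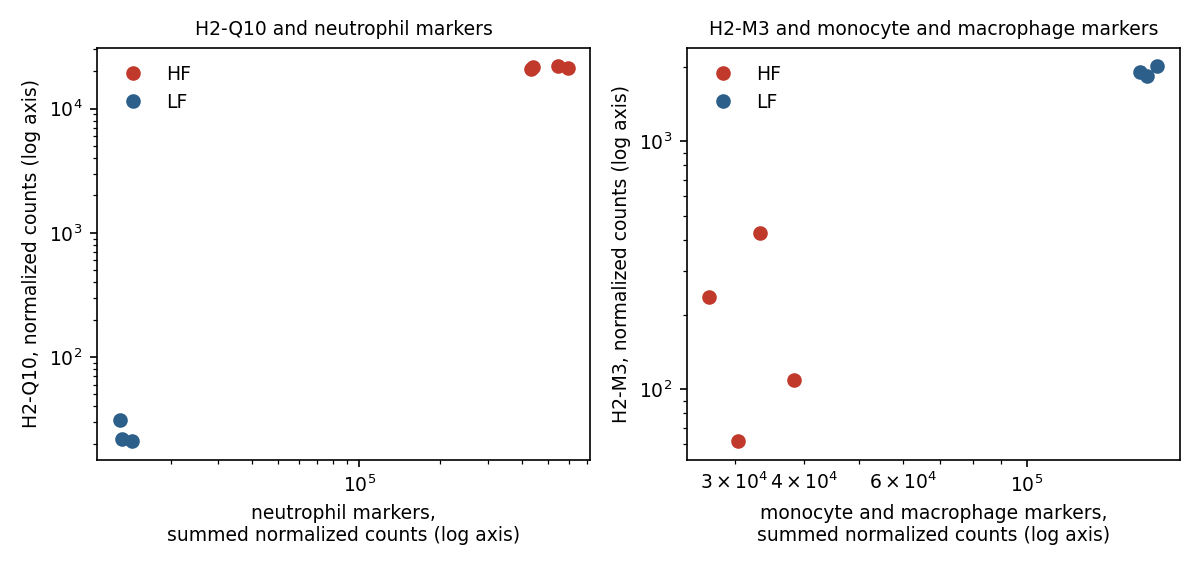
Left, H2-Q10 against the summed neutrophil markers; right, H2-M3 against the summed monocyte and macrophage markers; each point is a library, all axes are normalized counts on log scales, and HF is red and the libraries labelled LF blue. The 2 groups stand apart on both axes of both panels, and within HF H2-M3 runs from 61.7 to 428.

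B2m (ENSMUSG00000060802) encodes the light chain that all these heavy chains need to fold. It stood at 27159, 24644, 25793 and 28056 normalized counts in HF and at 21130, 20710 and 19314 in those labelled LF. The groups did not overlap, with a ratio of means of 1.30. The log2 difference was 0.37 ± 0.06 (SE, limma adjusted p = 0.0010), and edgeR with TMM scaling kept it (0.35, edgeR adjusted p = 0.0018). It turned to -0.15 at equal totals (limma adjusted p = 0.031) and to -0.64 after quantile normalization (limma adjusted p = 6.1e-06). Its direction thus depended on the scaling. Tap1 (ENSMUSG00000037321) encodes 1 of the 2 subunits of the transporter that carries peptides to the heavy chains. It stood at 4896, 3592, 4791 and 4240 normalized counts in HF and at 3474, 3088 and 4008 in those labelled LF. The groups overlapped through HF replicate 2, and the log2 difference was 0.31 ± 0.13 (SE; limma adjusted p = 0.080). With HF replicate 2 left out Tap1 passed the test (0.40, limma adjusted p = 0.023), as it did by DESeq2 (0.33, adjusted p = 0.046), and its direction turned to -0.21 at equal totals and -0.31 after quantile normalization.

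**Figure D3:**
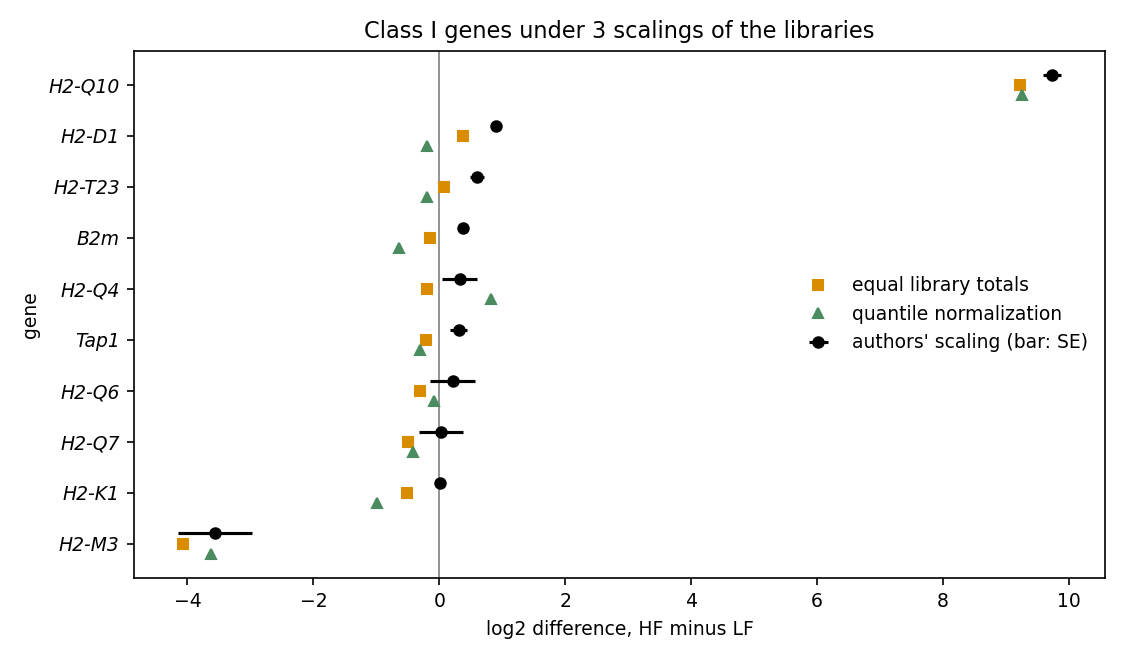
Log2 difference, HF minus LF, of each class I gene under the authors' scaling (black, bars are SE), with equal library totals (orange squares) and after quantile normalization (green triangles). H2-Q10 (9.73, 9.22 and 9.26) and H2-M3 (-3.56, -4.08 and -3.63) keep their side of 0 under all 3, while H2-D1 and H2-T23 turn after quantile normalization, H2-Q4 turns at equal totals, and B2m, Tap1, H2-K1, H2-Q6 and H2-Q7 turn under both other scalings.

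Each gene was also set against B2m in the same library, as log2 of (gene + 1) over (B2m + 1), which does not move with 1 factor per library (quantile normalization, which is not such a factor, was not applied to it). Of the 9 genes compared, 5 had groups that did not overlap. The share of all genes whose ratio to B2m does not overlap was not computed. Without the ratio, 62.2% of all genes tested did not overlap, so the count of 5 is not read as a result about these genes. The ratio was higher in HF for H2-Q10 (by 9.36), H2-D1 (by 0.53) and H2-T23 (by 0.23). It was lower in HF for H2-M3 (by -3.93) and H2-K1 (by -0.36). Each of these 5 gave a two-sided exact permutation p of 0.0571, the smallest that 4 libraries against 3 allow (0.103 after adjustment over the 9 genes). H2-K1, level in normalized counts, thus stood lower beside B2m in all 4 HF libraries, at a mean of -0.27 ± 0.0971 (SD, n = 4) against 0.0913 ± 0.0563 (SD, n = 3). The other 4 genes overlapped, with differences of -0.05 for H2-Q4, -0.16 for H2-Q6, -0.35 for H2-Q7 and -0.06 for Tap1.

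The 8 heavy chain genes together took 0.783% ± 0.0429 of the assigned reads in HF (SD, n = 4), against 0.628% ± 0.00261 in those labelled LF (SD, n = 3). Without H2-Q10 the shares were 0.667% ± 0.0436 and 0.628% ± 0.00265, and HF replicate 2, at 0.625%, then lay among the libraries labelled LF (0.625% to 0.631%). Within the heavy chain reads the makeup differed. H2-D1 supplied 58.1% ± 1.44 in HF and 55.6% ± 0.702 in those labelled LF. H2-K1 supplied 15.1% ± 0.596 and 26.7% ± 0.344. H2-Q10 supplied 14.8% ± 1.007 in HF, about as much as H2-K1, and 0.0302% ± 0.00673 in those labelled LF. The share of H2-M3 was 0.141% ± 0.108 in HF and 2.35% ± 0.0787 in the others (all SD, n = 4 and n = 3). Shares of a whole depend on each other, so the H2-Q10 reads by themselves lower the other shares in HF.

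**Figure D4:**
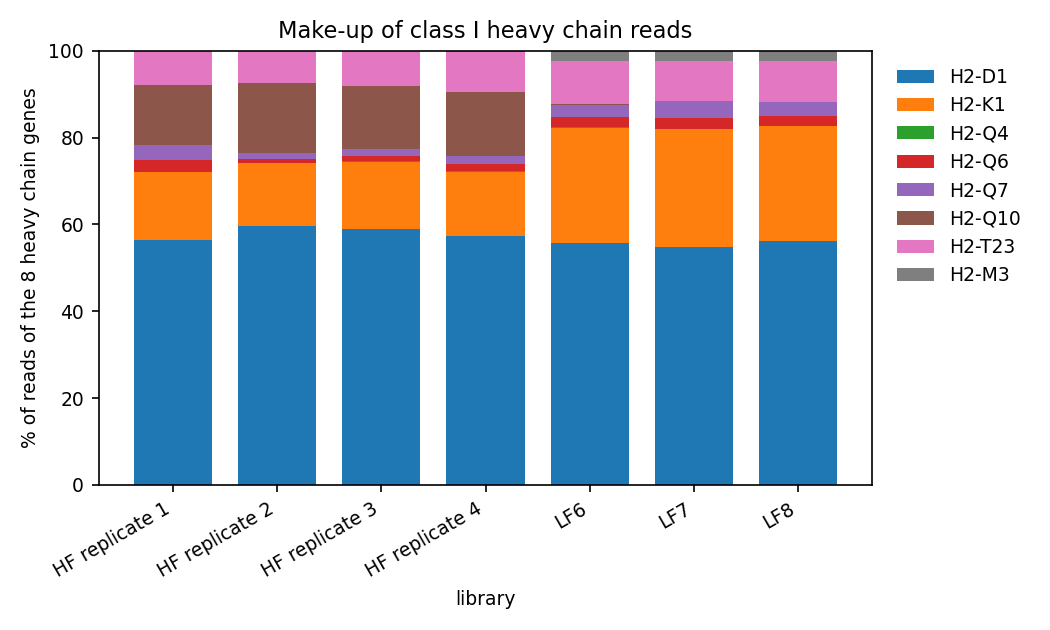
Share of each of the 8 heavy chain genes in the heavy chain reads of each library, in percent, stacked to 100. H2-Q10 (brown) takes 13.8% to 16.1% in the 4 HF libraries and is too thin to see in the libraries labelled LF, where H2-K1 (orange) is wider and H2-M3 (grey) visible; H2-Q4 is too thin to see in all libraries.

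Levels of different genes were compared per kilobase of GENCODE M21 exon, with the exons of all transcripts of a gene merged. This length can exceed that of the transcripts present, which were not measured, so the order depends on it. It was 4348 bases for H2-Q10 and 2938 for H2-K1, whose normalized counts in HF averaged 21387 and 21903. In HF the order was H2-D1 (32697 ± 1199 normalized counts per kilobase), B2m (30713), H2-K1 (7455), H2-Q10 (4919), H2-T23 (4108), H2-Q6 (1171), Tap1 (800), H2-Q7 (696), H2-M3 (145) and H2-Q4 (72.2). Neighbours in this order whose libraries overlapped were H2-D1 with B2m, H2-Q6 with Tap1, Tap1 with H2-Q7, and H2-M3 with H2-Q4. In the libraries labelled LF the order was B2m (23703 ± 1106 normalized counts per kilobase), H2-D1 (17520), H2-K1 (7386), H2-T23 (2691), H2-M3 (1332), H2-Q6 (914), Tap1 (643), H2-Q7 (621), H2-Q4 (56.3) and H2-Q10 (5.64). There the 1 pair of neighbours that overlapped was Tap1 with H2-Q7. H2-Q10 moved from the fourth place in HF to the last, and H2-M3 from the ninth to the fifth.

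The genes with profiles most like those of the widely expressed class I genes were sought over the 7 libraries, in 9558 genes that averaged 50 normalized counts or more, by the root-mean-square difference of centred log2 values. Nearest to H2-K1 was Gnb1, a G protein subunit, at 0.0380, and Dynlrb1 stood at 0.0559. Nearest to H2-D1 were Sypl, Dleu2 and Tmem164 (0.0508 to 0.0519). Nearest to B2m was Slc25a3, the mitochondrial phosphate carrier, at 0.0325, followed by Atrx and Morf4l1. The search was extended to H2-Q10 and H2-M3 after their values were seen. For genes whose groups differ this widely, the measure mostly picks genes with a group difference of like size. Their neighbours thus restate the difference between HF and the libraries labelled LF. H2-Q10 was nearest to S100a9 (0.184), a subunit of the neutrophil protein calprotectin, then to Mmp9, a neutrophil gelatinase, and Ceacam10 (0.273 and 0.295). S100a9 averaged 57401 normalized counts in HF, against 56.2 in those labelled LF. H2-M3 was nearest to Vma21, Nubp1 and St6galnac6 (0.197 to 0.275), which averaged 65.9 to 68.7 in HF, against 578 to 738 in those labelled LF.

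The genes that supply and load the peptides mostly stood lower in HF. Among 12 tested the test called 2 higher and 9 lower and left 1 uncalled, with a median log2 difference of -0.998, against -0.16 over all genes, of which 28.7% were lower. With equal library totals 1 was higher and 10 lower (42.1% of all genes were lower), and after quantile normalization 2 and 10 (26.8% lower). Psmb10, a subunit of the immunoproteasome, fell furthest (-2.15 ± 0.20 SE, limma adjusted p = 5.9e-05). Erap1, the peptidase that trims peptides in the endoplasmic reticulum, averaged 553 ± 147 normalized counts in HF (SD, n = 4), against 1838 ± 68.1 in those labelled LF (SD, n = 3), a log2 difference of -1.77. The chaperones that fold the heavy chain were lower as well: Canx by -1.54, Pdia3 by -1.52 and Calr by -1.28. So was Tapbpl, a peptide editor, by -1.47. Tapbp, the tapasin that holds the heavy chain at the transporter, averaged 8396 ± 103 in HF (SD, n = 4), against 8226 ± 599 in those labelled LF (SD, n = 3); its log2 difference of 0.03 (limma adjusted p = 0.688) became -0.49 at equal totals and -0.79 after quantile normalization, both past the threshold. The 2 genes that were higher, named here after their values were seen, were Tap2, the partner subunit of Tap1 (0.98), and Psmb9, an immunoproteasome subunit (0.73; 0.21 with equal library totals, limma adjusted p = 0.089). Tap1 and Psmb9 are neighbours read in opposite directions, and 5.44% of the 50-base windows of Tap1 also occur in Psmb9, so that without known strand some of their reads cannot be told apart.

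Of 16 transcription factors known to act on class I promoters, 8 stood higher in HF, 4 lower and 4 passed in neither direction, with a median of 0.47, against 26.2% higher and 28.7% lower over all genes. With equal library totals the counts were 4 higher and 6 lower, against 18.1% and 42.1% of all genes. After quantile normalization they were 7 and 3, against 26.6% and 26.8%. Irf1, an interferon response activator and the gene of highest mean in the list, averaged 11908 ± 962 normalized counts in HF (SD, n = 4), against 3900 ± 331 in those labelled LF (SD, n = 3), a log2 difference of 1.61. Atf1, which binds cyclic AMP response elements, was higher by 1.71 and Irf9 by 1.03. Nfkb1, a kappa B binding subunit, was lower by -1.38. Rfx5, of the complex that binds class I and class II promoters, was lower by -1.25 (limma adjusted p = 0.014), and lost this call after quantile normalization (-0.89, limma adjusted p = 0.112), without LF7 (-1.165, limma adjusted p = 0.065) and without LF8 (-1.179, limma adjusted p = 0.063). Nlrc5, the class I transactivator, named after its values were seen, was lower by -0.81 (limma adjusted p = 0.0038).

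Of 33 other class I and class I-like genes, 21 were in the table and 10 passed the filter on low values. Of these 10, 2 were higher, 2 lower and 6 did not pass, against 26.2% higher and 28.7% lower over all genes. With equal library totals 2 were higher and 7 lower, against 18.1% and 42.1% of all genes. H2-K2, a neighbour of H2-K1, was higher by 1.74 and H2-T24 by 1.32. Fcgrt, the heavy chain of the neonatal Fc receptor, averaged 133 ± 34.4 normalized counts in HF (SD, n = 4), against 1117 ± 114 in those labelled LF (SD, n = 3), a log2 difference of -3.09. Hfe, a regulator of iron uptake that also pairs with B2m, stood lower by -3.02, from 505 ± 314 against 3294 ± 183. H2-K2 and H2-T24 resemble other class I genes in sequence, so the assignment of their reads is uncertain.

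A list of 12 receptors held binders of class I or class I-like molecules and members of their families, not all of them known binders. Of the 12, 4 were higher in HF, 1 was lower and 7 did not pass, against 26.2% higher and 28.7% lower over all genes. With equal library totals 4 were higher and 4 lower, against 18.1% and 42.1%. Klra17, which encodes the inhibitory receptor Ly49Q, averaged 3287 ± 431 normalized counts in HF (SD, n = 4), against 42.8 ± 3.71 in those labelled LF (SD, n = 3), a log2 difference of 6.23. The myeloid receptors of paired type were higher as well: Lilrb4a by 2.54, Pira2 by 1.47 and Pirb by 1.32. Klrk1, which encodes the activating receptor NKG2D, was lower by -3.57, from 81.3 ± 43.9 against 849 ± 32.1. Without HF replicate 4 the count of receptors lower in HF was 4. The summed markers of natural killer cells, which carry Klrk1, ran from 240 to 1202 in HF and between 1293 and 2043 in those labelled LF, and their part in the Klrk1 difference was not tested.

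The class II genes went one way: all 7 tested were lower in HF, with a median of -2.24. Over all genes 28.7% were lower, with a median of -0.16. All 7 were lower under both other scalings too, against 42.1% of all genes at equal totals and 26.8% after quantile normalization. Class II molecules present peptides taken up from outside the cell and are best known from macrophages, dendritic cells and B cells. H2-Ab1 averaged 4226 ± 2156 normalized counts in HF (SD, n = 4), against 17330 ± 2343 in those labelled LF (SD, n = 3), a log2 difference of -2.18. H2-Aa and H2-Eb1 were lower by -2.22 and -2.24, Cd74 by -1.84, H2-DMa by -3.18, H2-DMb1 by -3.34 and their transactivator Ciita by -3.91. The summed class II counts ran from 12782 to 31719 in HF and between 77384 and 93810 in those labelled LF, and the dendritic cell markers from 719 to 1264 and from 2094 to 2941. The part of macrophage and dendritic cell RNA in the class II difference was not tested.

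**Figure D5:**
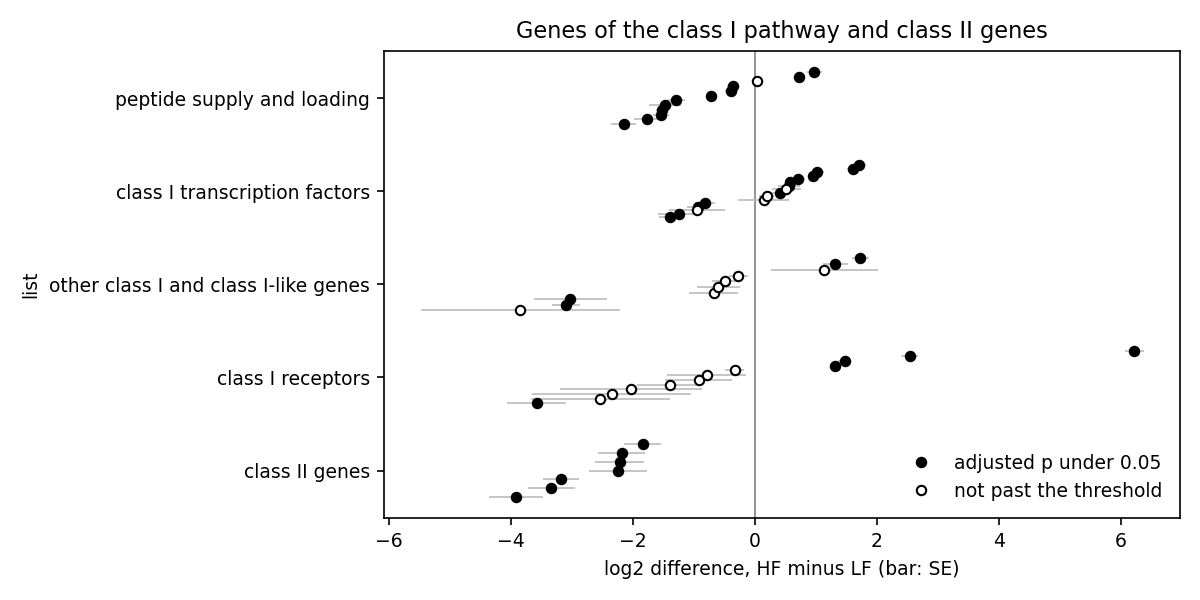
Log2 difference, HF minus LF, under the authors' scaling for every tested gene of 5 lists, 1 point a gene with its SE as a bar; filled points passed the limma test (adjusted p under 0.05) and open points did not. All 7 class II genes and 9 of 12 genes of peptide supply and loading lie below 0 and passed. The transcription factors and receptors lie on both sides. Of all genes tested 26.2% were higher and 28.7% lower, and equal library totals move the median of all genes by -0.51.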

How the data were processed

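The deposited table names its values normalized counts: a signal at or above 0, scaled by the authors. The authors' tools were STAR 2.6.1b, featureCounts 1.6.3 and DESeq2 1.20.0, per the submitters' processing notes, without roles or settings. Build and strand setting were not given in the sources used here. Further columns, per the file headers, hold the authors' log2 fold change and its error, their test statistic (a score) and their p-values. Every value was a whole multiple of 1 read within 0.01 (100% of values), so whole reads were recovered; edgeR on these called 7624 genes.

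HF1 to HF4 match the labels. The LF columns are numbered 6 to 8 and the labels 1 to 3, so these libraries are named LF6, LF7 and LF8, with no replicate number; 0 columns were left unmapped. Libraries stand for mice, 4 HF and 3 LF, per the design text. Amplified reads are not independent molecules, so read numbers understate the error.

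Log2(normalized count + 1) of genes with a mean of at least 10 was tested with limma 3.58.1 (trend) in R 4.3.3, with Benjamini-Hochberg adjustment; log2 differences are on that scale, which understates the change of low genes. The class I genes, lists and motifs were chosen with earlier results of these data known. Named are the 10 genes, list genes past the threshold with a log2 difference of at least 1 in size, the list gene of highest mean and the 3 nearest profiles per gene; cell type markers are given mostly as sums, and 1 gene that the rule names is not reported here. Other settings tried were a pseudocount of 0.5 or 5, a filter at 0 or 50, equal totals, quantile normalization, limma without trend, with a robust prior or with array weights, edgeR 4.0.16, DESeq2 1.42.0 and each library left out. Each tool was tested on simulated data with few changed genes and, for limma and edgeR, known scaling. That test does not bear on how these libraries should be scaled. Promoters came from RefSeq (GRCm38.p6; 10 of 10 matched), and exon lengths and shared windows from GENCODE M21 (35628 identifiers matched). Figures were drawn with matplotlib 3.10.9.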

Additional observations from a re-analysis of the deposited data

Results flagged for a closer look

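Of 66 quantities examined in the 4 HF libraries, 4 had 1 library far from the rest, by a gap over 0.829 of the group's range; chance alone does this in about 1 in 20 groups. None of the 10 class I genes was among them. The summed alveolar macrophage markers were 33282 normalized counts in HF replicate 1, against 8966 to 10982 in the other HF libraries, and 30151 of the sum came from Chil3; this library was the highest of HF for H2-D1, H2-K1, H2-Q6, H2-Q7 and Tap1. The summed platelet markers were 3244 in HF replicate 3, against 715 to 828. The summed natural killer cell markers were 239.9 in HF replicate 4, against 1038 to 1202; this library was the highest of HF for H2-Q4, H2-Q10, H2-T23, H2-M3 and B2m. The summed class I transcription factors were 36846 in HF replicate 2, against 42455 to 42589; this library was the lowest of HF for all of the 10 class I genes but H2-Q10.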

How the results depend on the processing

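H2-Q10 and H2-M3 kept direction and call under all alternatives. Quantile normalization turned H2-D1 (-0.20), H2-K1 (-0.996), H2-Q6 (-0.0852), H2-Q7 (-0.42), H2-T23 (-0.20), B2m (-0.64), Tap1 (-0.31) and Tapbp (-0.79). It gave 2 class I genes higher and 4 lower, against 26.6% and 26.8% of all genes. Equal library totals turned H2-K1 (-0.51), H2-Q4 (-0.19), H2-Q6 (-0.31), H2-Q7 (-0.49), B2m (-0.15), Tap1 (-0.21) and Tapbp (-0.49). They gave 2 class I genes higher and 3 lower. They also gave 1 peptide supply gene and 4 transcription factors higher, and 7 other class I genes and 4 receptors lower. Over all genes 18.1% were then higher and 42.1% lower. edgeR with TMM scaling gave -0.0105 for H2-K1. With array weights 4 other class I genes and 3 receptors were lower; 2 receptors were lower with a pseudocount of 5, a mean of at least 50 or quantile normalization. Leaving out 1 library gave -0.0335 to 0.0698 for H2-K1, -0.10 to 0.46 for H2-Q6, -0.31 to 0.26 for H2-Q7 and -0.0282 to 0.0740 for Tapbp; relative to B2m it gave -0.132 to 0.110 for H2-Q4, -0.459 to 0.0542 for H2-Q6 and -0.165 to 0.0736 for Tap1, and 1 to 4 receptors were lower. The cause of these changes was not tested. No paired analysis was possible because the LF columns carry no replicate number of the labels. The labels also do not pair any HF mouse with an LF mouse, so no paired design is known. With 4 libraries against 3, exact tests of single ratios could not pass the threshold, and between 28 and 45 reads set the H2-Q10 level in the libraries labelled LF.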
